A study of Mus musculus with 10 samples.

Results

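The genes described here were the 85 drug- and xenobiotic-metabolizing enzymes of 5 families found in mouse kidney single-cell counts. A gene was a member if its symbol began with Cyp2, Ces1, Ces2, Ugt1, Ugt2, Ugt3, Sult or Gst and it had at least 50 unique molecular identifiers (UMIs, each standing for 1 captured RNA molecule) over all libraries. Symbols ending in -ps were left out except Ces2d-ps. Of 28808 gene symbols in the tables, 134 began with these letters and 85 were members: 29 beginning with Cyp2, 12 carboxylesterases (Ces1 and Ces2), 15 glucuronosyl- and glycosyltransferases (Ugt), 8 sulfotransferases (Sult) and 21 beginning with Gst. Among the Cyp2 symbols, 6 (Cyp20a1, Cyp24a1, Cyp26a1, Cyp26b1, Cyp27a1 and Cyp27b1) share only the letters and act on vitamin D, retinoids or sterols, or have no settled substrate. The Gst symbols include Gstcd, which is named for a transferase domain and is not a member of the classical classes.

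The material was kidney cortex of mice whose age is given as 4 weeks, taken from normal kidneys (1 library, the control) or from injured kidneys on days 1, 2 and 4 (1 library each) and on days 7, 11 and 14 (2 libraries each, called replicates 1 and 2). The labels give the injury by day only and state no kind of injury, strain, genotype or sex. They do not say whether the libraries of 1 day came from separate mice, so the tests measure the spread between libraries, which may be technical. Each library was a single-cell suspension run through Drop-seq, a droplet method that reads the 3' ends of transcripts. Xist, which is transcribed from the inactive X chromosome of female cells, lay at 0 to 0.71 CPM (the usual scaling of a UMI count by its library's total) in the convoluted barcodes of the 10 libraries, and the Y-linked gene Ddx3y at 44.2 to 85.1 CPM.

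Enzymes of this kind handle drugs, toxins and endogenous lipids in steps. Cytochromes P450 oxidize the substrate and carboxylesterases cleave its ester bonds, and transferases then attach a polar group: a sugar from a UDP sugar (Ugt), sulfate (Sult) or glutathione (Gst). In the kidney the proximal tubule, with its convoluted and straight parts, holds much of this capacity, and some of these enzymes are known to differ between its parts and between the sexes in mice.

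Levels were measured in barcodes that still carried RNA of proximal tubule marker genes. A barcode was proximal if it held at least 4 UMIs from at least 3 of 34 marker genes (for example Lrp2, Slc34a1 and Slc7a13) and few UMIs of other cell types, convoluted if its markers of that part (among them Slc5a2 and Slc5a12) were at least 2 times those of the straight part (among them Slc7a13 and Slc22a7), and straight in the opposite case. No member was among these markers. This gave 13380 convoluted and 4026 straight barcodes of 52797 kept. The convoluted barcodes numbered 1453 in the control, 590, 1696 and 1354 on days 1, 2 and 4, 183 and 264 on day 7, 1484 and 1417 in the day 11 libraries, and 2281 and 2658 in those of day 14. The straight barcodes numbered 748 in the control and 243 on day 4, but 19 on day 1, 10 on day 2, and 7 and 57 in the day 7 libraries, and rose to 760 and 873 for day 11 and 886 and 423 for day 14. Sums of under 20 barcodes were not used, so straight barcodes have no value on days 1 and 2 and rest on replicate 2 alone on day 7. The gate is a range along a marker score and not a cell type: between 14 and 165 proximal barcodes a library lay at its minimum. A cell that had lost the markers of both parts is in neither class, so the values describe cells that kept some of them. A straight cell that had lost only its straight markers could be counted as convoluted. Slc34a1, on the convoluted list, stood at 951 unscaled CPM in control straight barcodes. The straight share of assigned barcodes was 34.0% in the control and 3.68% and 17.8% on day 7. How many straight cells were counted as convoluted was not tested.

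The sums held 446704 to 8119948 UMIs for convoluted and 198662 to 4206139 for straight barcodes. Levels are given as CPM of a library's summed UMIs scaled by trimmed mean of M values (TMM), so 3 UMIs stood for 0.346 to 10.2 CPM. A UMI counts 1 molecule at its 3' end whatever the transcript's length. In bulk sums of this kind, fewer expressing cells and less RNA per cell cannot be told apart. Several other signals moved with the day. In unscaled CPM the 9 macrophage markers measured summed to 15.2 in control convoluted barcodes (6 of 9 detected, C1qa at 0). They summed to 1596 and 1192 on day 7 (9 of 9) and to 87.3 and 39.96 on day 14. Also in unscaled CPM, the 9 genes of the dissociation stress list (such as Fos and Egr1) summed to 897 in the control. They summed to 3076 and 2417 on day 7 and to 1473 and 1751 on day 14. On the TMM scale of the enzyme levels the day 7 rise of both lists is smaller. Median mitochondrial share was 21.8% of UMIs in control convoluted barcodes and 4.80% and 8.71% on day 7. The TMM factor was 0.819 in the control and 1.35 and 1.26 on day 7, and Kap, an androgen-regulated kidney transcript, made up 34581 CPM of the unscaled control sum and 1688 and 9881 CPM of those of day 7. The part of these signals in the enzyme results was not tested.

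Summed over the 85 members, the enzymes made up 1.08% of scaled UMIs in control convoluted barcodes. They made up 0.362% on day 1, 0.688% on day 2, 0.651% on day 4, 0.514% and 0.570% on day 7, 1.09% and 1.19% in the day 11 libraries, and 1.06% and 1.10% in those of day 14. The libraries of days 1 to 7 all lay under the control, and those of days 11 and 14 all within 0.976 to 1.09 times it. Without TMM scaling the fall was smaller, from 0.887% in the control to 0.692% and 0.719% on day 7. In straight barcodes the members made up 1.63% of scaled UMIs in the control, 0.623% on day 4, 0.453% in the day 7 library, 1.24% and 1.59% in those of day 11, and 1.73% and 1.39% in those of day 14. Without scaling the fall was smaller here too, from 1.24% in the control to 0.801% on day 4 and 0.668% in the day 7 library (0.647 and 0.539 times the control, against 0.383 and 0.278 times with scaling).

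The families did not move alike. Carboxylesterases took 0.175% of scaled UMIs in control convoluted barcodes, 0.0126% and 0.0465% on day 7, and 0.166% and 0.170% on day 14. The Cyp2 symbols went from 0.327% to 0.176% and 0.163% on day 7 and back to 0.336% and 0.347% on day 14. Glucuronosyltransferases went from 0.347% to 0.176% and 0.164% and back to 0.311% and 0.327%. Sulfotransferases went from 0.158% to 0.0685% and 0.0802% and stood at 0.118% and 0.119% on day 14. Without scaling the day 7 falls were smaller: Cyp2 symbols went from 0.268% to 0.237% and 0.205%, glucuronosyltransferases from 0.284% to 0.237% and 0.207%, sulfotransferases from 0.129% to 0.0922% and 0.101%, and carboxylesterases from 0.143% to 0.0170% and 0.0586%. Glutathione transferases were the exception in convoluted barcodes, at 0.0756% in the control, 0.0807% and 0.116% on day 7, 0.162% and 0.165% in the day 11 libraries, and 0.126% and 0.136% in those of day 14, so no injured library lay under the control. In straight barcodes the Gst sum was 0.172% in the control and 0.119% in the day 7 library, and this order turned without scaling (0.131% and 0.176%).

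**Figure D1:**
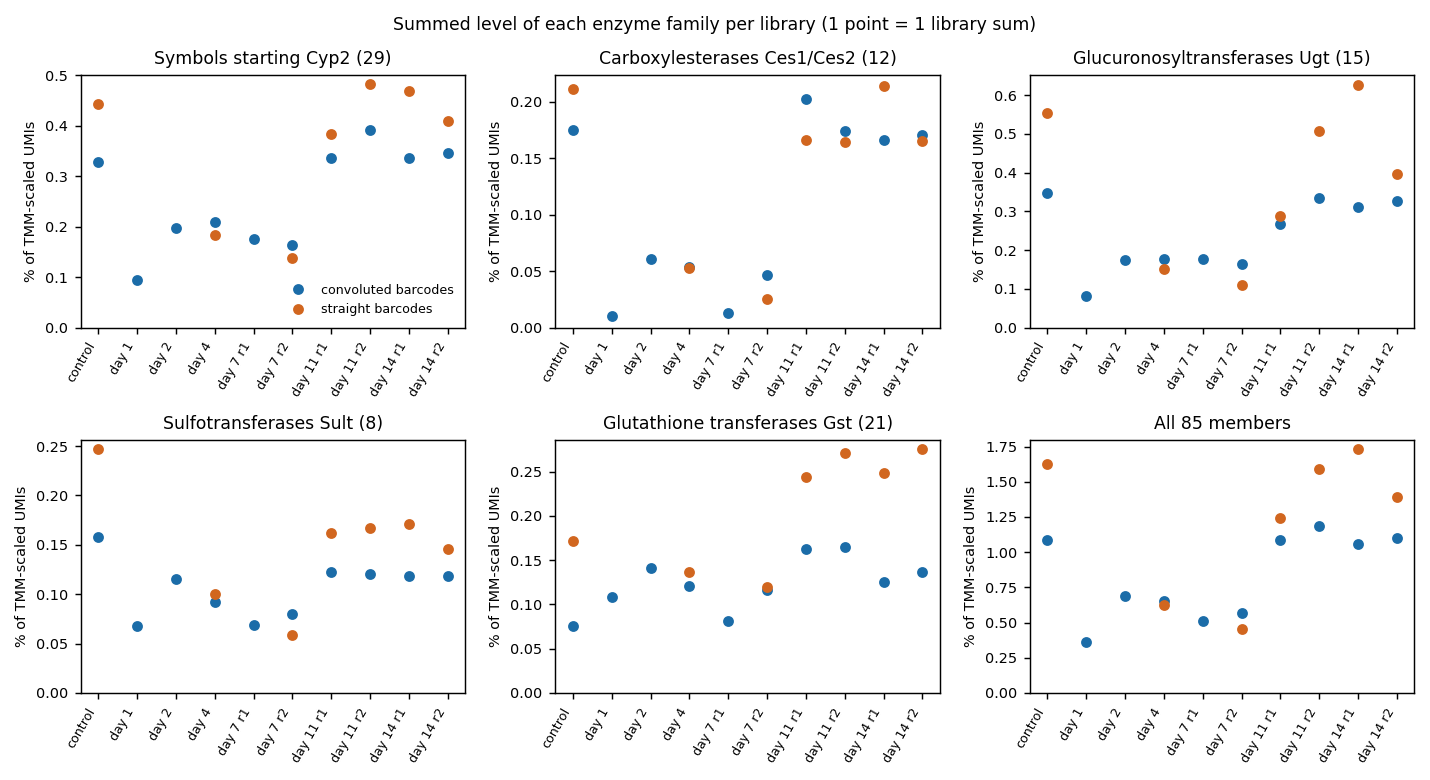
Summed level of each family in every library, in percent of TMM-scaled UMIs (vertical axes, from 0), for convoluted (blue) and straight (orange) barcodes, with 1 point per library and r1 and r2 the replicates of a day. Carboxylesterases in convoluted barcodes drop to between 0.0104% and 0.0608% on days 1 to 7, while glutathione transferases stay at or above the control value of 0.0756%.

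The question of which enzymes were lost or gained by day 7, the first day with replicates, was asked first in convoluted barcodes. Of the 85 members, 64 passed the filter on low counts and 21 did not, the latter with at most 3.72 CPM in any library. In the quasi-likelihood test of edgeR, adjusted after Benjamini-Hochberg over 12707 genes, 13 members were higher and 16 lower than in the control at an adjusted p under 0.05. Of all genes 18.8% were called, 9.15% as higher and 9.62% as lower. The median log2 change was -0.40 over the members and 0.03 over all genes. With scaling by total UMIs alone, the members split into 17 higher and 12 lower, with 25 of the 29 calls shared, and the median of all genes moved by 0.66 to 0.69. That scaling called 3636 of the 12707 genes, where TMM called 2385. When barcodes were assigned after thinning each to 500 UMIs, 17 of 62 members were called in place of 29 of 64. Calls over all genes fell as well, to 1526 of 12600. The control has 1 library, so its spread is assumed to be that of the replicated days.

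Among the oxidizing enzymes, 6 of 21 tested Cyp2 symbols fell and 5 rose. Cyp2e1, which oxidizes ethanol and acetaminophen, stood at 1376 CPM in the control, 112 on day 1, 586 on day 2, 919 on day 4, 481 and 491 in the day 7 libraries, 2005 and 2422 in those of day 11, and 1529 and 1368 in those of day 14. Every library of days 1 to 7 was under the control and both of day 11 were above it. The day 7 fall had a log2 change of -1.50 (SE 0.22, adjusted p = 0.00013) by edgeR. Cyp2j11 stood at 80.4 CPM in the control, 8.75 on day 1, 38.1 on day 2, 33.5 on day 4, 11.6 and 22.1 in the day 7 libraries, 56.4 and 50.1 in those of day 11, and 68.4 and 73.5 in those of day 14. Its levels on day 7 did not overlap with the control or with any later library (log2 change -2.18, SE 0.32, adjusted p = 0.00016, edgeR). Cyp2a4, a steroid hydroxylase whose 3' end is shared in part with Cyp2a5 (33.3% of its windows of 50 bases), went from 34.8 CPM in the control to 1.66 and 8.83 CPM on day 7 (1 and 8 UMIs). Its log2 change was -2.55 (-4.35 without replicate 2 of day 7), and its call was lost under a stricter gate (adjusted p = 0.298, edgeR).

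Cyp2j5, the renal P450 known for making epoxides of arachidonic acid, was the second most abundant Cyp2 symbol, at 1338 CPM in the control, 477 on day 1, 808 on day 2, 710.2 on day 4, 929.9 and 726 in the day 7 libraries, 828 and 906 in those of day 11, and 1198 and 1355 in those of day 14. The day 7 libraries lay under the control but inside the range of the other injured days. Its log2 change of -0.69 passed the edgeR test (adjusted p = 0.039) and did not pass it without replicate 2 of day 7 (-0.52, adjusted p = 0.131). On total UMIs its log2 change was -0.02. The call of Cyp2j5 was lost in 11 alternative settings in all. The related Cyp2j13 had a log2 change of -0.99 that was -0.64 without replicate 1 (adjusted p = 0.193, edgeR). The 5 Cyp2 symbols that rose were Cyp2d22, Cyp2j6, Cyp2s1, Cyp2c44 and Cyp24a1, named after their values were seen. Cyp2d22 rose from 10.8 to 24.95 and 26.5 CPM and Cyp2j6 from 9.79 to 28.3 and 32.01 CPM. Cyp24a1, which degrades vitamin D, rose from 2.03 to 44.9 and 15.5 CPM. Cyp2s1 had 2 UMIs in the control and 14 on day 7, a ratio of 13.8 (counting interval 3.16 to 125). Cyp2c44 had 0 and 7, which is 4.58-fold higher if the 0 stood for 3 counts, with the counting error of the 7 left out.

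Carboxylesterases moved in 1 direction. Of 10 tested, 5 fell (Ces1d, Ces1e, Ces1f, Ces2c and Ces2d-ps) and none rose, at a median log2 change of -1.96. Ces1f, the most abundant, stood at 948 CPM in the control, 32.7 on day 1, 185 on day 2, 244 on day 4, 34.9 and 189 in the day 7 libraries, 839 and 735 in those of day 11, and 961 and 945 in those of day 14. The libraries of days 1 to 7 did not overlap with the control or the later days, and the replicates of day 7 themselves differed. The day 7 fall had a log2 change of -3.01 (SE 0.43, adjusted p = 0.00012) by edgeR, and was -2.33 without replicate 1 and -4.75 without replicate 2.

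Ces1d, also known as a triglyceride hydrolase, stood at 328 CPM in the control, 9.90 on day 1, 249 on day 2, 123 on day 4, 28.3 and 129 in the day 7 libraries, 592 and 413 in those of day 11, and 288 and 281 in those of day 14. Days 1, 4 and 7 lay under every other library, and day 2 lay nearer to the control. Its log2 change on day 7 was -1.97 (SE 0.41, adjusted p = 0.0029, edgeR), -1.35 without replicate 1 and -3.53 without replicate 2, and it did not pass in DESeq2 (adjusted p = 0.152). Ces1e went from 272 CPM to 23.3 and 73.9 CPM on day 7 (log2 change -2.40, SE 0.34, adjusted p = 9.8e-05, edgeR). Its change was -3.54 without replicate 2. The neighbours Ces2c and Ces2d-ps, the latter annotated as a pseudogene, share 36.8% and 67.8% of their 3' windows with other Ces2 genes, so reads could have been split between them. Ces2c went from 87.1 CPM to 16.6 and 29.8 CPM (log2 change -1.84), and Ces2d-ps from 91.2 to 19.96 and 36.4 CPM (log2 change -1.63).

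Glucuronosyltransferases moved in both directions. Of 12 tested, 3 fell (Ugt2b38, Ugt3a1 and Ugt3a2) and 1 rose (Ugt2b37). Ugt2b38, the most abundant of all members in these barcodes, stood at 2003 CPM in the control, 451 on day 1, 1103 on day 2, 996 on day 4, 574 and 652 in the day 7 libraries, 1479 and 1889 in those of day 11, and 1901 and 1885 in those of day 14. Days 1 to 7 all lay under the other libraries (log2 change -1.70, SE 0.22, adjusted p = 4.7e-05, edgeR). Ugt3a2, of the group that uses UDP sugars other than UDP-glucuronic acid, stood at 1039 CPM in the control, 107 on day 1, 299 on day 2, 389 on day 4, 203 and 235 in the day 7 libraries, 622 and 699 in those of day 11, and 632 and 752 in those of day 14. It fell on day 7 (log2 change -2.24, SE 0.22, adjusted p = 2.7e-06, edgeR), and both day 11 and both day 14 libraries also lay under the control. Ugt3a1 went from 124 to 23.3 and 66.2 CPM, a log2 change of -1.38 that did not pass without replicate 1 (-0.91, adjusted p = 0.0719, edgeR).

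Ugt2b37 went the other way and stood at 122 CPM in the control, 159.9 on day 1, 155 on day 2, 224 on day 4, 787 and 574 in the day 7 libraries, 277 and 409.9 in those of day 11, and 290.3 and 302 in those of day 14. Both day 7 libraries were above every other library, and all injured libraries were above the control. The rise had a log2 change of 2.47 (SE 0.29, adjusted p = 1.9e-05) by edgeR. The part in this rise of straight cells counted as convoluted was not tested. Summed over all barcodes, whatever their type, Ugt2b37 was lower on day 7 (-1.40). Proximal barcodes made up 59.9% of those kept in the control and 5.91% and 8.87% on day 7, and their part in that fall was not tested. Ugt2b37 and Ugt2b38 lie in 1 cluster on the minus strand of chromosome 5, at chr5:87240493-87254804 and chr5:87409942-87424203 (GRCm38), and none of the windows of 50 bases at their own 3' ends was found in another gene. Ugt2b5, which lies in the same cluster, stood at 148 CPM in the control and 143 and 84.98 CPM on day 7 and did not pass the test. The median unscaled level of Ugt2b37 over libraries was 9.17 CPM in macrophage-marked, 4.998 in thick ascending limb-marked and 262 in convoluted barcodes.

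Of 3 tested sulfotransferases, Sult1d1 fell and Sult1c2 rose. Sult1d1, which sulfates catecholamines, stood at 1440.3 CPM in the control, 501 on day 1, 893 on day 2, 643 on day 4, 456 and 529.8 in the day 7 libraries, 1083 and 999 in those of day 11, and 914 and 901 in those of day 14. All injured libraries were under the control, with days 1, 4 and 7 lowest. Its day 7 fall had a log2 change of -1.54 (SE 0.21, adjusted p = 7.1e-05) by edgeR. Sult1c2 stood at 131 CPM in the control, 167 on day 1, 247 on day 2, 264 on day 4, 226 and 265 in the day 7 libraries, 129.6 and 194 in those of day 11, and 259 and 279.9 in those of day 14. Both day 7 libraries were above the control, but its log2 change of 0.91 became 0.80 without replicate 2 of day 7, with an adjusted p of 0.0838 by edgeR. It was -0.14 over all barcodes.

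Among glutathione transferases more rose than fell: of 18 tested, 6 rose (Gsta1, Gsta2, Gstm1, Gstm5, Gsto1 and Gstt1) and 1 fell (Gstz1). Gstm5, of the mu class, stood at 68.6 CPM in the control, 272 on day 1, 314 on day 2, 278 on day 4, 251 and 263 in the day 7 libraries, 178 and 181 in those of day 11, and 167 and 184 in those of day 14. No injured library overlapped with the control, and days 1 to 7 were all above days 11 and 14. The day 7 rise had a log2 change of 1.91 (SE 0.24, adjusted p = 3.7e-05) by edgeR. Gsta2, of the alpha class, stood at 10.5 CPM in the control, 128 on day 1, 54.00 on day 2, 36.3 on day 4, 41.6 and 77.3 in the day 7 libraries, 8.13 and 4.38 in those of day 11, and 10.5 and 16.4 in those of day 14. Days 1 to 7 were above the control, day 1 highest, and days 11 and 14 lay on both sides of it. The rise on day 7 had a log2 change of 2.55 (SE 0.42, adjusted p = 0.00041) by edgeR, but 46.7% of its 3' windows are shared with Gsta1 and other genes, so their counts cannot be fully told apart.

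Gsta1 stood at 3.71 CPM in the control, 72.3, 43.6 and 10.2 CPM on days 1, 2 and 4, and 11.6 and 18.8 CPM on day 7. Its log2 change of 2.08 was 1.65 without replicate 2 (adjusted p = 0.158, edgeR). Gstt1, of the theta class, stood at 10.1 CPM in the control, 30.1 on day 1, 80.3 on day 2, 95.4 on day 4, 29.9 and 62.9 in the day 7 libraries, 27.3 and 18.99 in those of day 11, and 61.3 and 88.5 in those of day 14. Every injured library was above the control, day 4 most, and the replicates of days 7 and 14 overlapped. The day 7 change was 2.26 (SE 0.44) and 1.57 without replicate 2 (adjusted p = 0.0641, edgeR). Gstm1 rose by a log2 change of 1.12, from 55.4 to 103 and 135 CPM, and had an adjusted p of 0.0551 by edgeR without replicate 2. Its direction turned when all proximal barcodes (-0.41) or all barcodes (-0.44) were summed. Gstz1, which is also the maleylacetoacetate isomerase of tyrosine breakdown, fell from 165 to 33.3 and 76.2 CPM (log2 change -1.53, and -2.30 without replicate 2).

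RefSeq promoters (GRCm38.p6, 250 bases before the start) were held for 70 members, 83 windows in all. The core of the antioxidant response element, TGACNNNGC on either strand, was found in 3.61% of them (3 of 83) and in 10.2% of 32851 promoters of all genes. The letters GCGTG, the core of the site of the aryl hydrocarbon receptor, were found in 19.3% and 28.2%. The letters CAAAGTCCA, a site of HNF4, went the other way, at 1.20% (1 of 83) and 0.384%. A match is only a string of letters. The window of Gstm5 is shown because this gene rose in both parts of the tubule on day 7, and that of Gsta3 as a second of the 3 member windows with the antioxidant core (the other is of Gstm7). Bases inside the annotated gene were left off, and capitals mark the antioxidant core, each sequence 5′ to 3′ on the gene's strand.
Gstm5, chr3:107895604-107895820, plus strand: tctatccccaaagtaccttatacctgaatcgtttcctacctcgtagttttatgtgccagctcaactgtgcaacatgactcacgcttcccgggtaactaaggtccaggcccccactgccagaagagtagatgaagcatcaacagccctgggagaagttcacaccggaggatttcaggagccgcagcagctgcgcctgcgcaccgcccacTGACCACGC
Gsta3, chr1:21240335-21240584, plus strand: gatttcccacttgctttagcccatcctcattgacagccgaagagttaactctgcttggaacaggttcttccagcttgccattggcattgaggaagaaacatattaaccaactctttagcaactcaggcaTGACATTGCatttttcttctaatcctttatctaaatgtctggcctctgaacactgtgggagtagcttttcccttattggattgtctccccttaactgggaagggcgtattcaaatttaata
Gsta3 stood at 31.4 CPM in the control and 28.3 and 43.04 CPM on day 7 in convoluted barcodes and was not called there.

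Levels of some enzymes that rose were also read in barcodes marked as other cell types. Free RNA in droplets can give UMIs there, and its share was not measured. For scale, Cyp2e1 had a median unscaled level of 1108 CPM over convoluted, 25.2 over macrophage-marked and 19.6 over thick ascending limb-marked barcodes, and Ugt2b38 1214, 41.1 and 20.9 CPM. The median unscaled level of Gsto1 was 31.9 CPM over convoluted, 67.3 over macrophage-marked and 179.9 over thick ascending limb-marked barcodes. That of Gstt1 was 47.4, 5.87 and 163 CPM, and that of Cyp2j6 23.98, 5.24 and 69.7 CPM. Among these classes the 3 were highest in thick limb-marked barcodes, where each was above its convoluted level. The macrophage levels of Gstt1 and Cyp2j6 are not read as expression, because the share of free RNA was not measured. Gstm5 (238, 17.6 and 55.8 CPM) and Gsta2 (28.8, 4.25 and 3.995 CPM) were higher in convoluted than in those other barcodes. In Havcr1-marked barcodes outside the proximal gate Gsta2 was at 397 CPM on day 1 and 50.99 CPM on day 4, and had 0 UMIs in replicate 1 of day 7, which allows up to 46.6 CPM. In Havcr1-marked convoluted barcodes of the same libraries it was at 159, 79.99 and 45.96 CPM, so it was higher outside the gate on day 1 and lower on day 4, and day 7 gave no order at this depth. These values carry no test. In unscaled CPM the 5 thick limb markers summed to 524 in control convoluted barcodes (5 detected). They summed to 273 and 373 on day 7 (4 detected). The gate itself limits UMIs of other cell types, and the part of thick limb RNA in these levels was not tested.

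**Figure D2:**
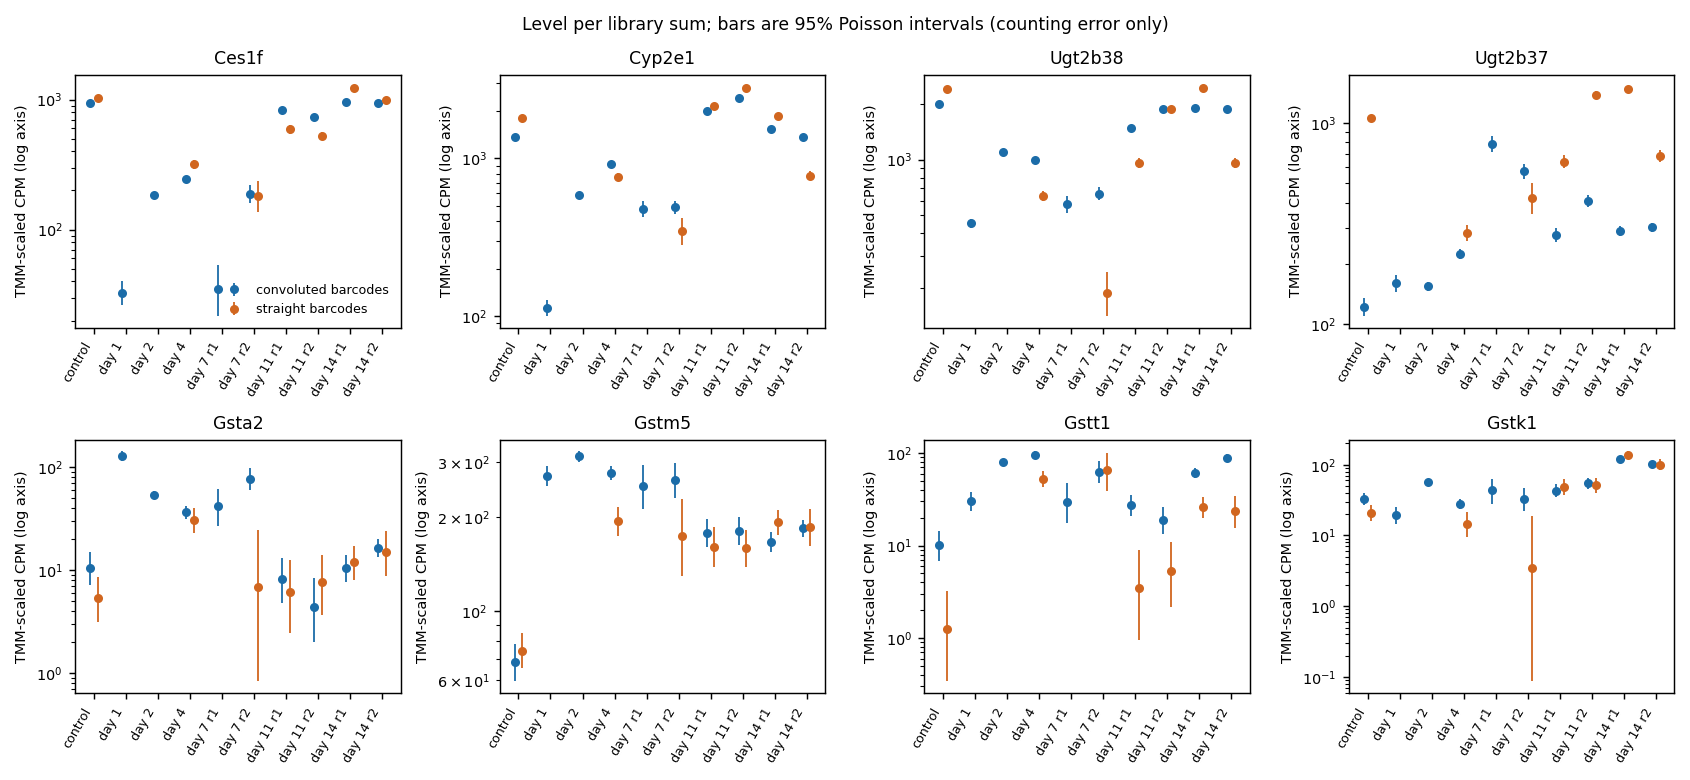
Levels of 8 members in every library sum (TMM-scaled CPM, log axes) in convoluted (blue) and straight (orange) barcodes, with bars for 95% Poisson intervals that cover counting error only. In convoluted barcodes Ces1f, Cyp2e1 and Ugt2b38 lie under the control on days 1 to 7, Ugt2b37 is highest on day 7 (787 and 574 CPM), and Gstk1 is highest on day 14 (121 and 103 CPM).

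In straight barcodes, too, markers of other kinds moved with the day. In unscaled CPM the macrophage list summed to 24.5 in the control (4 of 9 detected) and 498 on day 7 (9 of 9). The stress list summed to 565 and 5149, and with TMM scaling both lists rose less. Their part in the results was not tested. The day 7 comparison rests on 1 library of 57 barcodes against the 1 control library, so neither side has a replicate of its own and the spread is that of days 11 and 14. Of 53 tested members, 17 were lower and 3 higher by edgeR's quasi-likelihood test, against 16.4% of all 10673 genes called (7.30% higher and 9.12% lower). The members' median log2 change was -1.003, that of all genes -0.07. Scaling by total UMIs gave 12 lower and 6 higher, with 15 calls shared and the median of all genes at 0.75. When barcodes were assigned after thinning each to 500 UMIs, 11 members were called in place of 20.

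Of 8 tested carboxylesterases 6 were lower and none higher, at a median log2 change of -4.18. Ces2c stood at 352 CPM in the control, 55.03 on day 4, 10.2 in the day 7 library, 335 and 371 in the day 11 libraries, and 293 and 195 in those of day 14. The day 7 value came from 3 UMIs, and it was 34.3-fold lower than in the control, with a counting interval of 11.7 to 167. Ces2d-ps stood at 341 CPM in the control, 64.3 on day 4, 13.7 in the day 7 library, 335 and 363 in the day 11 libraries, and 288 and 201 in those of day 14 (log2 change -4.51, SE 0.48, adjusted p = 2.0e-05, edgeR). Both were lowest on day 7 and next lowest on day 4. Ces1f stood at 1024 CPM in the control, 317 on day 4, 181 in the day 7 library, 590.0 and 525 in the day 11 libraries, and 1226 and 985 in those of day 14. It fell on day 7 (log2 change -2.38, SE 0.28, adjusted p = 5.7e-05, edgeR) and on day 11 was still under the control in both libraries. Ces1e (2 UMIs on day 7) was 15.8-fold lower, with a counting interval of 4.35 to 131. Ces2b (0 UMIs on day 7) was 2.23-fold lower if the 0 stood for 3 counts, with the counting error of the control left out.

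Of 7 tested glucuronosyltransferases, 4 fell (Ugt2b38, Ugt2b5, Ugt3a1 and Ugt3a2). Ugt2b38 stood at 2427 CPM in the control, 634 on day 4, 188 in the day 7 library, 962 and 1873 in the day 11 libraries, and 2447 and 957 in those of day 14. The day 7 level was the lowest, and the replicates of days 11 and 14 differed widely between themselves. The fall on day 7 had a log2 change of -3.57 (SE 0.58, adjusted p = 0.00076) by edgeR. Ugt2b5 stood at 305 CPM in the control, 43.4 on day 4, 34.2 in the day 7 library, 117 and 253 in the day 11 libraries, and 188 and 84.1 in those of day 14, with 10 UMIs on day 7 (log2 change -3.03; not passed in DESeq2, adjusted p = 0.0816). Ugt3a2 fell by a log2 change of -1.85, from 1369.7 to 348 CPM, and on total UMIs Ugt3a1 did not pass (adjusted p = 0.0718, edgeR).

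Sult1d1 fell from 2385 to 417 CPM (log2 change -2.39, SE 0.25, adjusted p = 1.9e-05, edgeR), and days 4, 11 and 14 were all under the control too, at 735, 1548, 1503, 1405 and 1254 CPM. Of 16 Cyp2 symbols, 4 fell (Cyp2a4, Cyp2e1, Cyp2j5 and Cyp2j11) and 1 rose (Cyp2d22, 6 UMIs on day 7). Cyp2e1 stood at 1810.5 CPM in the control, 763 on day 4, 345 in the day 7 library, 2154 and 2786 in the day 11 libraries, and 1859 and 775 in those of day 14. Replicate 2 of day 14 was low as well, close to day 4. The day 7 change of -2.27 passed in edgeR (adjusted p = 0.003) and not in DESeq2 (adjusted p = 0.104). Cyp2j5 went from 1623 to 608 CPM (log2 change -1.29, and -0.46 on total UMIs, adjusted p = 0.225, edgeR).

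Among 18 Gst symbols in straight barcodes, Gstt1 and Gstm5 rose and Gstt2 and Gstz1 fell. Gstt1 stood at 1.25 CPM in the control, 52.7 on day 4, 64.9 in the day 7 library, 3.49 and 5.36 in the day 11 libraries, and 26.1 and 23.7 in those of day 14, from 4 UMIs in the control and 19 on day 7. Days 4 and 7 were highest, and day 14 stood above days 11 and the control. The day 7 change was 5.74 (SE 0.62, adjusted p = 2.2e-05, edgeR). Gstm5 stood at 74.7 CPM in the control, 194 on day 4, 174 in the day 7 library, 161 and 159 in the day 11 libraries, and 193 and 186 in those of day 14, with every injured library above the control (log2 change 1.34, SE 0.29, adjusted p = 0.005, edgeR). Gstm1, the most abundant Gst in straight barcodes, stood at 474 CPM in the control, 195 on day 4, 362 in the day 7 library, 708 and 796 in the day 11 libraries, and 989.9 and 1204 in those of day 14, with days 4 and 7 lowest, and did not pass on day 7.

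Whether the day 7 change differed between the parts of the tubule was tested as a difference of changes, which again rests on the single straight library. Of 67 members tested, 9 changed more downward and 1 more upward in straight than in convoluted barcodes, against 2.97% of all genes called by edgeR (1.91% downward and 1.06% upward). Ugt2b37 was among them. It rose from 122 to 787 and 574 CPM in convoluted barcodes and went from 1051 to 424 CPM in straight ones. Its straight level over its convoluted level was 3.10 on the log2 scale in the control and -0.44 in replicate 2 of day 7. The fall of Ugt2b37 in straight barcodes was not called in its own test. Its difference of changes was -3.46 and was called by edgeR. Day 7 and the control have 1 library each with straight barcodes, so the spread was borrowed from the replicated days. That call therefore does not measure the spread between libraries of day 7 or of the control. The part in it of straight cells counted as convoluted was not tested. When barcodes were assigned at 500 UMIs the difference of Ugt2b37 was -0.53 and did not pass. With that assignment 4 members were called in place of 10. Ces2c (-1.37), Ugt2b5 (-0.015), Ugt2b38 (-0.28) and Gstt1 (1.58) did not pass then either. Of the others with a more downward change in straight barcodes, Ces2c, Ces2d-ps, Ugt2b38, Sult1d1 and Cyp2e1 were lower on day 7 in both classes. Ugt2b5 and Gstt2 were called lower in straight barcodes and did not pass in convoluted ones, and Gstm1 was called higher in convoluted barcodes and did not pass in straight ones. Gstt1 was higher in both classes, with the larger change in straight barcodes. The difference of Cyp2e1 did not pass without replicate 1 (adjusted p = 0.102, edgeR) or replicate 2 (adjusted p = 0.1, edgeR) of day 11. With barcodes assigned at 500 UMIs the differences of Cyp2e1 (0.43, adjusted p = 0.133, edgeR) and Sult1d1 (0.047, adjusted p = 0.986, edgeR) turned upward and did not pass.

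Days 1, 2 and 4 have 1 library each and no test. Of 50 members with at least 10 UMIs in control convoluted barcodes, 25 were under 0.5 times and 8 over 2 times the control on day 1, against 15.9% and 10.1% of all 10098 such genes. On day 2 the counts were 13 and 13 (10.4% and 7.83% of all genes), and on day 4 they were 15 and 10 (13.8% and 9.28%). On day 7 they were 25 and 9 in replicate 1 (21.3% and 10.4%) and 22 and 12 in replicate 2 (15.7% and 9.49%). Day 1 was the lowest library for Ces1f, Cyp2e1, Ugt2b38 and Ugt3a2, day 2 was higher than day 1 for each of them, and day 7 was again under day 4. In straight barcodes of day 4, 25 of 46 such members were under 0.5 times the control and 7 were over 2 times, against 21.8% and 10.3% of all 9952 genes. In convoluted barcodes the median of the members' ratios was 0.513 on day 1, 0.807 on day 2, 0.697 on day 4 and 0.480 and 0.565 on day 7, and that of all genes lay between 0.869 and 0.941.

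**Figure D3:**
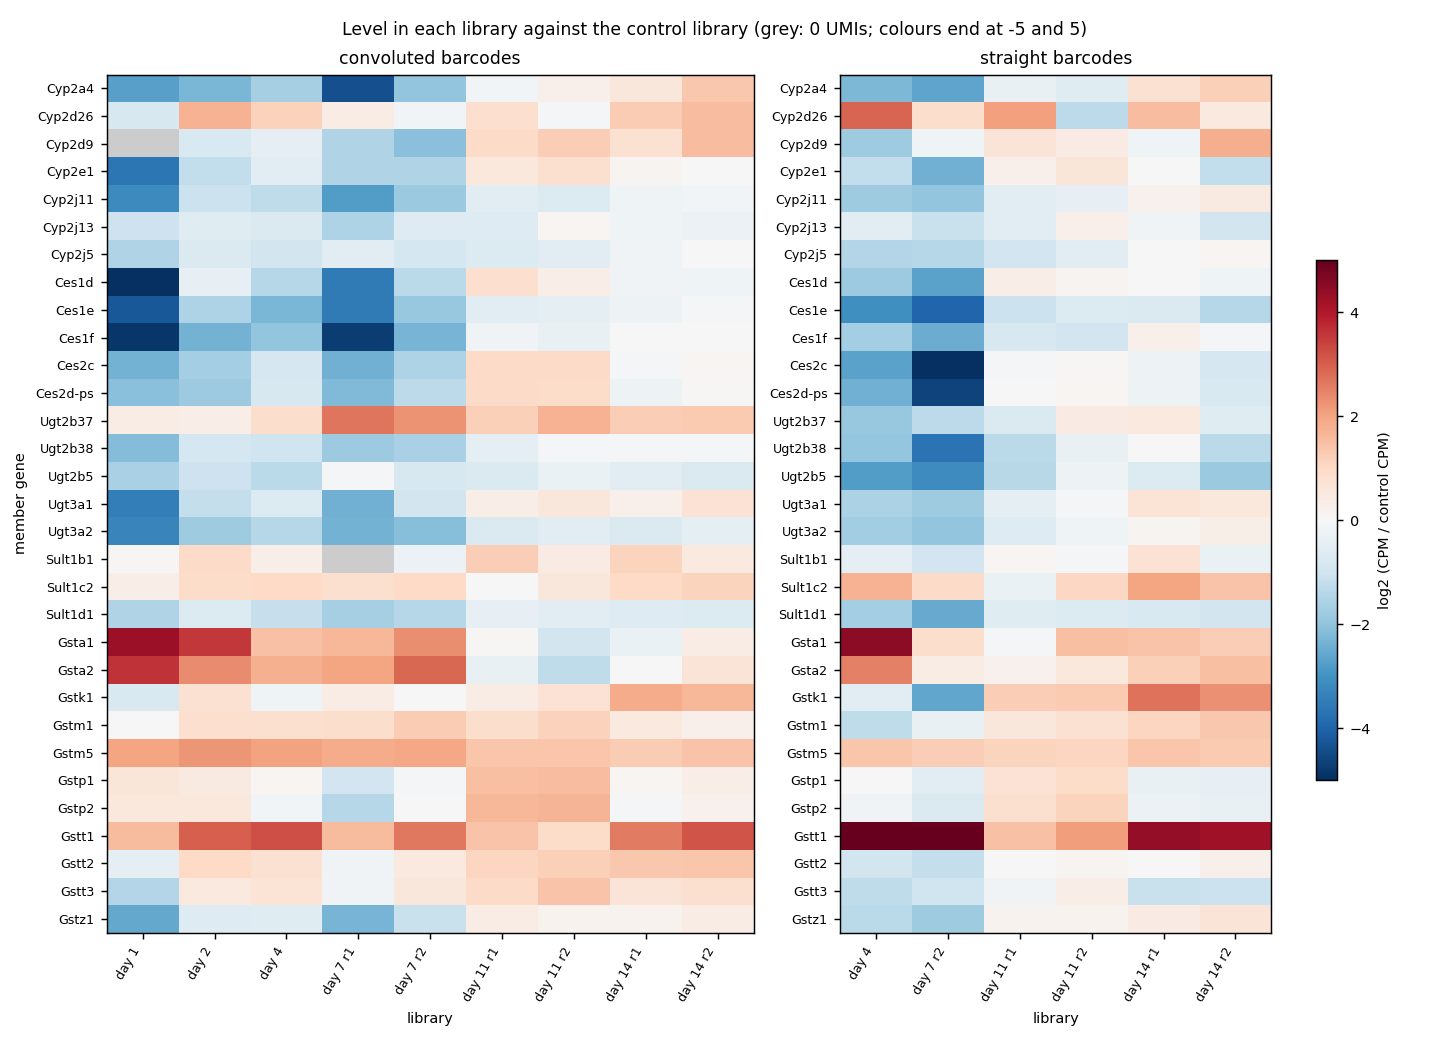
Level of 31 named members in each injured library against the control library, as log2 of the ratio of TMM-scaled CPM (blue lower, red higher, grey 0 UMIs), for convoluted and straight barcodes. The named carboxylesterases are blue on days 1 to 7 in both classes where measured, and Gstm5 and Gstt1 are red in every column.

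Recovery was measured as day 11 against day 7, with 2 libraries on each side in convoluted barcodes. There 23 members were higher and 11 lower on day 11 by edgeR, against 24.6% of all genes called (13.3% higher and 11.3% lower). The median log2 change was 0.84 over the 64 members and -0.06 over all genes, and total-UMI scaling gave 19 higher and 16 lower, with 30 of 34 calls shared. That scaling called 4426 of all 12707 genes, where TMM called 3127. Between these days the macrophage markers summed in convoluted barcodes went from 1596 and 1192 to 122 and 129 unscaled CPM. The stress list stood at 3076 and 2417, then at 2147 and 2167 unscaled CPM, an order that turns on the TMM scale of the enzyme levels. The day 11 libraries kept 5409 of 10800 and 5283 of 10711 deposited barcodes. Their median UMIs in convoluted barcodes, 1358.5 and 1258, were the lowest of the 10 libraries. Median mitochondrial share there was 4.80% and 8.71% on day 7 and 15.9% and 12.1% on day 11. The TMM factor went from 1.35 and 1.26 to 0.844 and 0.882. The part of these signals and differences in the result was not tested. Carboxylesterases led, with 7 of 10 higher and none lower (median log2 change 2.77). Ces2c went from 16.6 and 29.8 CPM to 170.3 and 168 CPM, above the 87.1 CPM of the control (log2 change 2.80, SE 0.26, adjusted p = 1.4e-06, edgeR). Ces2d-ps did the same, at 175 and 171 CPM on day 11 (log2 change 2.56). Ces1f rose by 2.74 and Ces1d by 2.59 on the log2 scale; without replicate 2 of day 7 these were 4.48 and 4.14, and without replicate 1 they were 2.07 and 1.97.

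Cyp2e1 stood above the control on day 11, at 2005 and 2422 CPM against 481 and 491 CPM on day 7 and 1376 CPM in the control (day 11 against day 7, log2 change 2.19, SE 0.19, adjusted p = 6.0e-07, edgeR). The pi-class genes Gstp1 and Gstp2, whose 3' ends are 91.2% and 100% shared and which are therefore read together, rose from day 7 to day 11. Gstp1 stood at 117 CPM in the control, 176 on day 1, 158 on day 2, 124 on day 4, 59.9 and 111 in the day 7 libraries, 330.1 and 343 in those of day 11, and 125 and 149 in those of day 14. Both day 11 libraries were above all others (log2 change 1.93, SE 0.24, adjusted p = 2.3e-05, edgeR). Gsta2 fell from 41.6 and 77.3 to 8.13 and 4.38 CPM between day 7 and day 11 (log2 change -3.28, SE 0.39, adjusted p = 1.2e-05, edgeR), as did Gsta1 (log2 change -2.43, and -2.00 without replicate 2 of day 7, adjusted p = 0.0747, edgeR). Gstt1 fell from 29.9 and 62.9 to 27.3 and 18.99 CPM (log2 change -1.06), and did not pass without replicate 2 of day 7 (-0.38, adjusted p = 0.607, edgeR) or replicate 2 of day 11 (-0.82, adjusted p = 0.197, edgeR). Ugt2b37 fell from 787 and 574 to 277 and 409.9 CPM (log2 change -0.98, and -0.72 without replicate 1 of day 11, adjusted p = 0.0597, edgeR). It was higher on day 11 when all proximal barcodes (0.19) or all barcodes (2.203) were summed.

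In straight barcodes 19 of 53 members were higher on day 11 than in the single day 7 library and 1, Gstt1, was lower, against 14.6% of all genes called (9.13% higher and 5.49% lower). On total UMIs 11 were higher and 3 lower, with 12 of the 20 calls shared. Ces2c went from 10.2 CPM to 335 and 371 CPM, 34.5-fold higher with a counting interval of 11.8 to 168. Ces2d-ps had a log2 change of 4.58 (SE 0.46, adjusted p = 3.3e-05) by edgeR. Gstt1 fell from 64.9 to 3.49 and 5.36 CPM (log2 change -3.93). Gstk1 (1 UMI on day 7) was 14.7-fold higher, with a counting interval of 2.59 to 585. With barcodes assigned at 500 UMIs the changes of Gstk1 (-0.033) and Ces1e (-0.13) turned and did not pass. The remaining calls included Ces1d, Ces1e, Ces1f, Cyp2a4, Cyp2e1, Sult1d1, Ugt2b38 and Gstp1, all upward.

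By day 14 convoluted barcodes differed from the control in few members. Of 64, 7 were higher and none lower by edgeR, against 8.48% of all genes called (3.98% higher and 4.49% lower). The share of members called (10.9%) was close to the 8.48% of both directions together. As all 7 were higher, the matching share of all genes was 3.98%. At an unadjusted p under 0.05, 22 members were counted, and 3104 of all 12707 genes. DESeq2 called 8, the extra one being lower (Sult1d1, log2 change -0.71). With only the control and day 14 libraries in the fit, edgeR called 14 of 61, 11 higher and 3 lower: Sult1d1 (-0.69), Ugt2b5 (-0.64) and Ugt3a2 (-0.61). That fit called 2116 of all 11398 genes. On total UMIs 10 were higher and none lower. Among the 10 tested carboxylesterases the lowest adjusted p was 0.33 by edgeR. Of the 7, 4 were glutathione transferases: Gstt1, Gstk1, Gstt2 and Gstm5.

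Gstt1 stood at 61.3 and 88.5 CPM on day 14 against 10.1 CPM in the control (log2 change 2.88, SE 0.40, adjusted p = 0.00071, edgeR). Gstk1, the kappa-class enzyme of mitochondria and peroxisomes, stood at 33.1 CPM in the control, 19.4 on day 1, 56.5 on day 2, 28.1 on day 4, 43.3 and 33.1 in the day 7 libraries, 43.1 and 54.5 in those of day 11, and 121 and 103 in those of day 14. The day 14 libraries were above all others (log2 change 1.75, SE 0.27, adjusted p = 0.0015, edgeR). Gstt2 stood at 121 CPM in the control, 87.5 on day 1, 241 on day 2, 204 on day 4, 106 and 171 in the day 7 libraries, 254 and 274 in those of day 11, and 305 and 315 in those of day 14. Its day 14 levels were the highest, next to those of day 11 (log2 change 1.36, SE 0.26, adjusted p = 0.0055, edgeR). Gstm5 was 1.35 higher on the log2 scale.

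Of the other 3 members called on day 14, Cyp2d26 went from 42.2 to 102 and 122 CPM, a log2 change of 1.40 that was 1.26 without replicate 2 of day 14 (adjusted p = 0.102, edgeR). Ugt2b37 was still at 290.3 and 302 CPM against 122 CPM (log2 change 1.27, adjusted p = 0.0687 without replicate 2, edgeR). Sult1c2 was at 259 and 279.9 CPM against 131 CPM, and its log2 change of 1.03 did not pass without either replicate of day 14 (adjusted p = 0.0652 and 0.146, edgeR). Without replicate 2 of day 14, 4 members were called in all.

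In straight barcodes 6 of 53 members were higher and 4 lower on day 14 than in the control by edgeR. Of all 10673 genes 12.6% were called, 5% as higher and 7.63% as lower. The count of lower members was therefore close to the background. On total UMIs 12 were higher and 3 lower, with 9 calls shared. Gstk1 stood at 20.9 CPM in the control, 14.5 on day 4, 3.42 in the day 7 library, 48.9 and 51.3 in the day 11 libraries, and 139 and 101 in those of day 14, with day 14 above every other library (log2 change 2.51, SE 0.27, adjusted p = 0.00012, edgeR). Gstt1 was higher (26.1 and 23.7 against 1.25 CPM, log2 change 4.22), and so were Gstm1 (1.20) and Gstm5 (1.32). Sult1c2 rose from 75.6 to 297 and 201 CPM, but did not pass without replicate 1 of day 14 (log2 change 1.44, adjusted p = 0.107, edgeR). Cyp2a4 rose to 424 and 576 from 252 CPM and did not pass without replicate 2 (log2 change 0.71, adjusted p = 0.0553, edgeR).

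The 4 lower members of straight barcodes on day 14 were Ces2b, Gstt3, Ces1e and Sult1d1. Ces2b (log2 change -1.74) went from 22.8 to 7.88 and 5.26 CPM. Gstt3 went from 54.99 to 25.3 and 26.3 CPM, a log2 change of -1.12 (-1.04 without replicate 1 of day 14, adjusted p = 0.126, edgeR). Sult1d1 changed by -0.86 (-0.90 without replicate 1, adjusted p = 0.0743, edgeR), and Ces1e went from 108 to 65.96 and 40.3 CPM (log2 change -0.75 without replicate 2, adjusted p = 0.0575, edgeR). Summing all barcodes turned Ces1e (0.48) and Gstt3 (0.27). DESeq2 called 4 members in place of 10. The 9 genes of the stress list summed to 1287 and 2855 unscaled CPM in these day 14 sums and to 565 in the control.

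The day 14 changes also differed between the parts of the tubule for some members. Of 67 tested, 3 moved more upward and 6 more downward in straight than in convoluted barcodes by edgeR, against 2.92% of all genes called (0.842% upward and 2.08% downward). DESeq2 called 0 of them. In edgeR 19 had an unadjusted p under 0.05, as had 1620 of all 12829 genes. Gstm1 (difference of log2 changes 0.82, adjusted p = 0.0057, edgeR) went from 474 to 989.9 and 1204 CPM in straight and from 55.4 to 78.5 and 65.4 CPM in convoluted barcodes, so both day 14 libraries were above the control in both parts. Ugt2b37 (difference -1.34) went from 1051 to 1471 and 686 CPM in straight barcodes, on both sides of the control. Without replicate 2 of day 14, the differences of Ces1e (-0.48), Cyp2e1 (-0.12), Gstm1 (0.55) and Ugt2b38 (0.08) did not pass, with adjusted p of 0.196, 0.883, 0.243 and 0.951 by edgeR. With barcodes assigned at 500 UMIs, 6 of the 9 did not pass: Ces1e (-0.27), Cyp2e1 (-0.061), Gstm1 (0.33), Sult1c2 (0.45), Ugt2b37 (-0.16) and Ugt2b38 (-0.040). Over all alternative settings the difference of Sult1c2 lost its call in 10, that of Ugt2b38 in 9 and that of Cyp2e1 in 8.

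Straight and convoluted barcodes of the same library were compared over 7 libraries with the library as a block. Of 67 members, 23 were higher in straight and 16 higher in convoluted barcodes by edgeR, against 31.1% of all 12829 genes called (15.5% higher and 15.6% lower). Of these 39, 11 and 10 had that direction in all 7 libraries. The same count was not made for all called genes, so it is no result about the members as a group. Among the P450s, Cyp2d9, a testosterone hydroxylase known for male-biased expression, stood at 59.05, 17.4, 51.2, 91.6, 78.1, 50.6 and 208 CPM in the straight barcodes of the control, day 4, day 7, both day 11 and both day 14 libraries. In the convoluted barcodes of the same libraries it stood at 4.73, 3.39, 1.10, 9.09, 11.2, 8.01 and 13.9 CPM. Straight barcodes were higher in each of the 7 (straight over convoluted, log2 3.28, SE 0.19, adjusted p = 1.9e-10, edgeR). Cyp2a4 (log2 2.63) and Cyp2j11 (log2 1.90) were also higher in straight barcodes in all 7.

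Cyp2d26 had the opposite pattern. In the same order of libraries it stood at 1.87, 13.9, 3.42, 7.85, 0.766, 5.39 and 2.63 CPM in straight and at 42.2, 93.2, 38.6, 75.6, 39.9, 102 and 122 CPM in convoluted barcodes. It was lower in straight barcodes in every library (log2 -3.85, SE 0.23, adjusted p = 3.4e-10, edgeR). Cyp2d9 (chr15:82433437-82456845, plus strand) and Cyp2d26 (chr15:82790101-82794294, minus strand) share 26.8% and 33.0% of their 3' windows with other genes. Of the carboxylesterases, Ces2c (log2 1.19), Ces2d-ps (log2 1.17), Ces2b and Ces2e were higher in straight and Ces1d (log2 -0.63), Ces1e (log2 -1.85) and Ces1g in convoluted barcodes, so the called Ces2 genes and the called Ces1 genes lay on opposite sides. Ces2c was nonetheless lower in the straight barcodes of the day 7 library.

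Of the transferases, Gstm1 stood at 474, 195, 362, 708, 796, 989.9 and 1204 CPM in straight and 55.4, 97.6, 135, 102, 123, 78.5 and 65.4 CPM in convoluted barcodes of the 7 libraries, again in the same order. It was higher in straight barcodes in all 7, least on days 4 and 7 (log2 2.78, SE 0.27, adjusted p = 2.4e-07, edgeR). Ugt2b37 (log2 1.42), Ugt3a1 (log2 1.22), Ugt3a2 (log2 0.71) and Sult1d1 (log2 0.45) were higher in straight barcodes. Ugt2b34 (log2 -3.65), Gstt1 (log2 -1.33), Gsto1 (log2 -1.07), Gsta3 (log2 -1.02) and Sult1c2 (log2 -0.41, and -0.33 without the control, adjusted p = 0.0743, edgeR) were higher in convoluted barcodes. Ugt2b38, Cyp2e1 and Ces1f were not called either way, but with barcodes assigned at 500 UMIs Cyp2e1 was higher in straight ones (log2 0.30, adjusted p = 0.00084, edgeR).

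**Figure D4:**
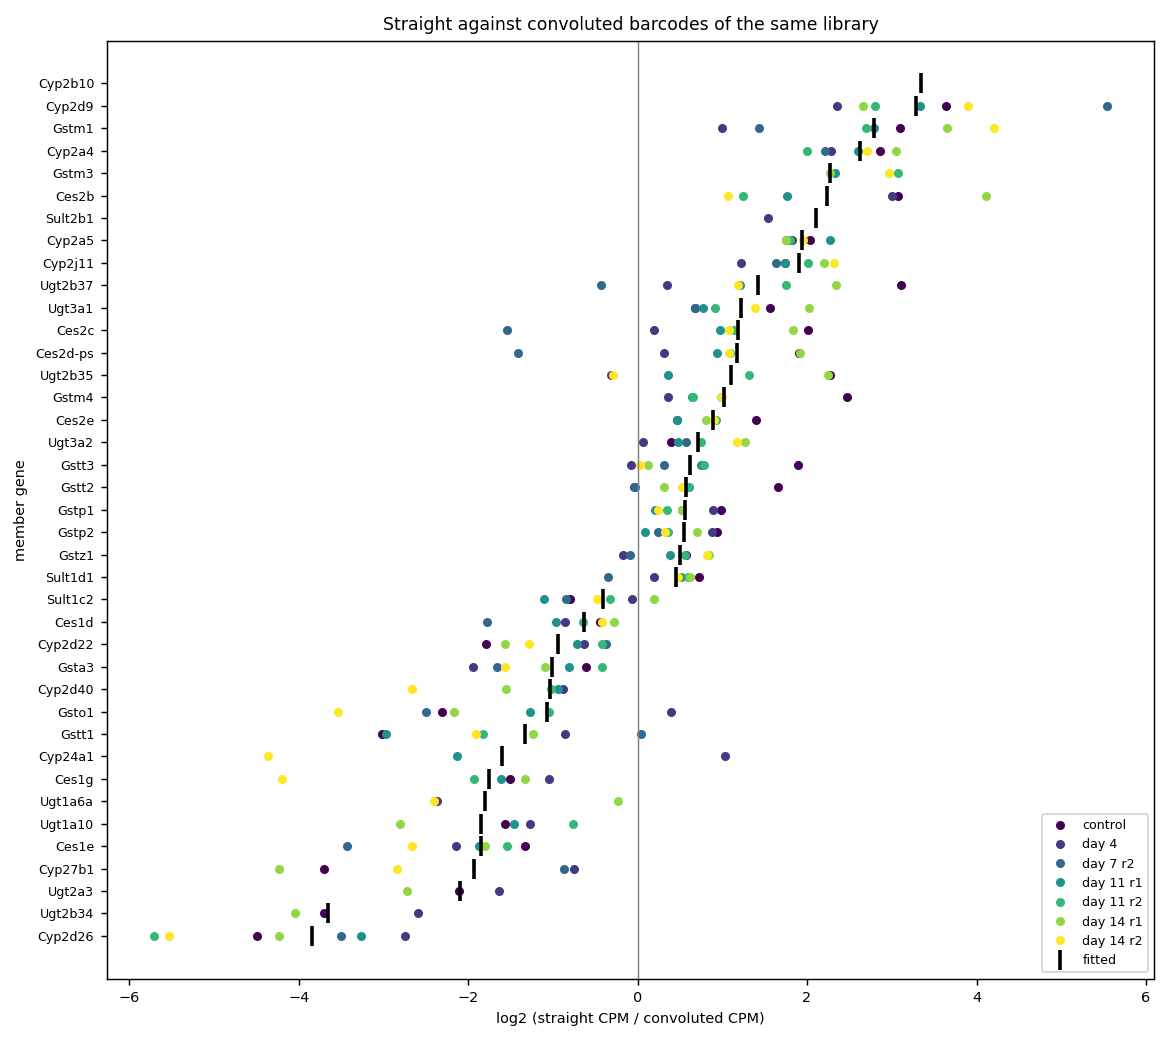
Log2 ratio of straight to convoluted level in each of the 7 libraries with both classes (points, coloured by library) and the fitted value (bar) for the 39 called members, with 0 marking equal levels and members with too few UMIs in a library lacking its point. Points of Cyp2d9, Cyp2a4 and Cyp2j11 all lie right of 0 and those of Cyp2d26 and Ces1e all left.

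Havcr1, the kidney injury molecule gene, marks injured proximal cells, so convoluted barcodes with at least 2 Havcr1 UMIs (marked) were set against those with none (free) within the 5 libraries that held at least 40 of each: days 1, 2 and 4 and both of day 7. Of 46 members tested, 14 were lower and 5 higher in marked barcodes by edgeR. Of all 10624 genes 21.4% were called, 10% as lower and 11.4% as higher. The count of higher members was therefore close to the background, and only that of lower members was above it. On total UMIs 13 were lower and 7 higher, with 18 of 19 calls shared. Marked barcodes had more UMIs, with medians of 3392 against 1665 on day 1, 8266 against 2202 on day 2, 2971 against 1800 on day 4, and 2252 against 1415 and 3328 against 1429 on day 7. The part of this depth in the differences was not tested.

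Carboxylesterases were 3 of 6 lower and glucuronosyltransferases 4 of 6 lower in marked barcodes, and none of either family was higher. Ces1e stood at 18.3 CPM in marked against 19.4 in free barcodes on day 1, 48.5 CPM in marked against 110.2 in free barcodes on day 2, 33.6 CPM in marked against 81.9 in free barcodes on day 4, and 8.36 CPM in marked against 76.7 in free barcodes and 11.6 CPM in marked against 114 in free barcodes on day 7 (unscaled CPM). It was lower in marked barcodes in all 5 libraries (log2 change -1.49, SE 0.22, adjusted p = 5.4e-06, edgeR). Ugt2b38 was lower in all 5 as well, from 483 CPM in marked against 639 in free barcodes on day 1 to 469.5 CPM in marked against 1039.9 in free barcodes in replicate 2 of day 7 (log2 change -0.76). Cyp2d26 (-1.53), Ces1d (-1.26), Ugt3a2 (-0.82), Cyp2e1 (-0.80) and Ces1f (-0.76) were lower too by the test. Of these, Ces1d and Ces1f were higher in marked barcodes on day 1 and Cyp2e1 in replicate 1 of day 7.

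Of 15 Gst symbols, 4 were higher and 4 lower in marked barcodes. Gsta2 stood at 159 CPM in marked against 126 in free barcodes on day 1, 165 CPM in marked against 36.3 in free barcodes on day 2, 79.99 CPM in marked against 24.3 in free barcodes on day 4, and 45.96 CPM in marked against 97.7 in free barcodes and 139 CPM in marked against 72.3 in free barcodes on day 7. Replicate 1 of day 7 was the exception among the 5 (log2 change 1.12, SE 0.22, adjusted p = 0.00041, edgeR; adjusted p = 0.136 in DESeq2). Gsta1 had a log2 change of 1.32, which was 0.52 without day 2 (adjusted p = 0.283, edgeR). Gstp1 was higher in marked barcodes in all 5 libraries (log2 change 0.61), although it had no call for day 7 against the control. Gstk1 (log2 change -0.76) was lower in all 5.

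**Figure D5:**
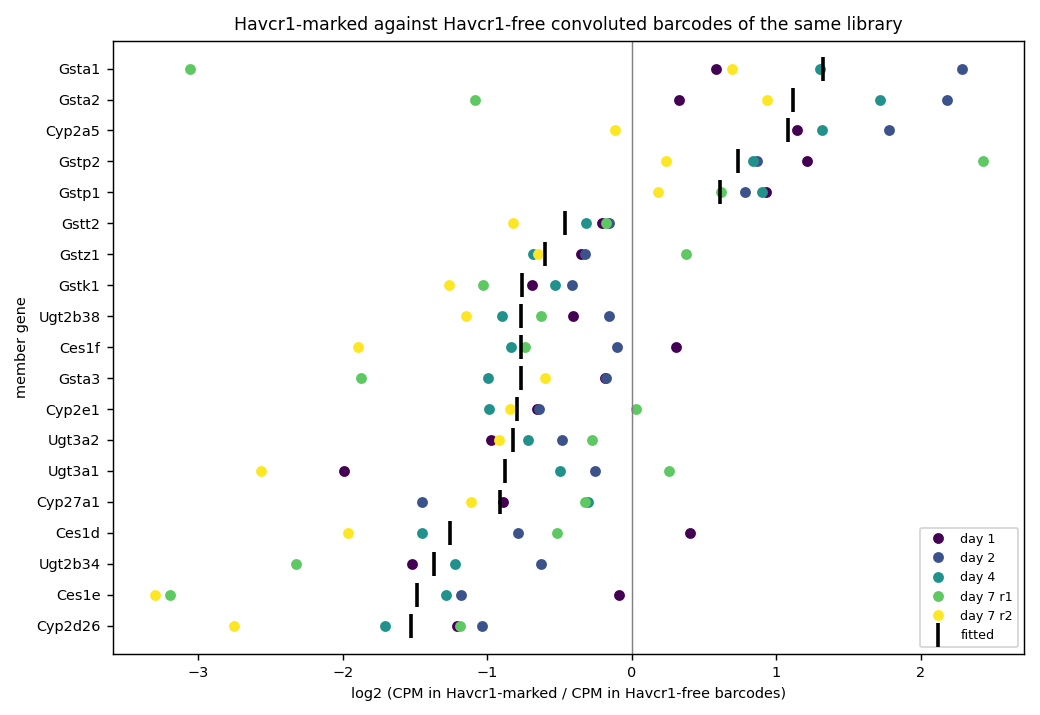
Log2 ratio of the unscaled CPM in Havcr1-marked to that in Havcr1-free convoluted barcodes in each of 5 libraries (points, coloured by library; none where a side had 0 UMIs) and the fitted value (bar) for the 19 called members. Ces1e, Cyp2d26 and Ugt2b38 lie left of 0 in every library shown, and Gstp1 lies right of 0 in every one.

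Other genes of the pathway were counted in the same fits. The list of other drug-metabolizing enzymes (42 genes, such as Cyp4, flavin monooxygenase and aldehyde dehydrogenase genes) had 12 lower and 5 higher of 31 tested in convoluted barcodes on day 7, where 9.62% of all genes were lower and 9.15% higher. Cyp4a12a (log2 change -2.83) and Cyp4b1 (-2.80) fell most, and Aldh1a1 (3.93), which makes retinoic acid, and Mgst1 (3.13), a microsomal glutathione transferase, rose most. On day 11 against day 7, 17 were higher and 2 lower (13.3% and 11.3% of all genes). On day 14 against the control 7 were higher and none lower (3.98% and 4.49% of all genes), led by Aldh1a1 (2.25) and Cbr1 (1.41). In straight barcodes on day 7, 15 of 29 were lower and 5 higher (9.12% and 7.30% of all genes), with Fmo5 (-5.11) and Cyp4a12a (-4.35) the most reduced.

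Of 17 tested redox partners and cofactor enzymes in convoluted barcodes on day 7, 9 were lower and 1 higher (9.62% and 9.15% of all genes). Ggt1, the gamma-glutamyltransferase of the brush border that cleaves glutathione conjugates (log2 change -2.08), and Ugp2, which makes UDP-glucose (-1.72), fell most, and Cyb5r3 (0.72) rose. On day 11 against day 7, 10 were higher and none lower, where 13.3% of all genes were higher. On day 14 against the control the 1 call, where 8.48% of all genes were called, was Gsr, glutathione reductase, which was lower (-0.95).

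Of 14 tested transporters of drugs and organic ions, 8 were lower and 1 higher on day 7 in convoluted barcodes (9.62% and 9.15% of all genes). Slco1a1 (-3.36) and Slco1a6 (-2.70) fell most, and Abcc4 (2.83), an efflux pump for organic anions, rose. In straight barcodes 8 of 14 were lower (9.12% of all genes) and Abcc4 was higher again (6.58). On day 14 the lowest adjusted p among the 14 in convoluted barcodes was 0.079 by edgeR.

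Among the transcription factors and receptors known to control these enzymes, 3 of 18 were lower and 2 higher on day 7 in convoluted barcodes. With 18.8% of all genes called there, this count is near the background and no result about these factors as a group. Ppara (-1.57) and Nr1h4, the bile acid receptor (-1.29), fell most, and Hnf4a (-0.81), one of the genes of the proximal gate, was the third. Maff, a small Maf protein (4.51), and Nr1i2, the pregnane X receptor (4.25), rose. On day 14 against the control 1 of 18 was higher and 1, Cebpb (-1.44), was lower. With 8.48% of all genes called there, this count too is near the background.

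The members' positions were taken from GENCODE M21 on GRCm38, the assembly also called mm10. The 5 called Ces genes lie in 2 clusters on chromosome 8: Ces1d, Ces1e and Ces1f on the minus strand (chr8:93166068-93279747 from the first to the last) and Ces2c and Ces2d-ps on the plus strand (chr8:104847068-104873861). Gstt3, Gstt1 and Gstt2 lie on the minus strand of chromosome 10 (chr10:75774115-75837424), and of these only Gstt1 was called on day 7 in convoluted barcodes. Gstk1 lies at chr6:42245935-42250447 and Cyp2e1 at chr7:140763739-140774987, both on the plus strand. Of 84 members with a position, 31 shared at least 1 of their 3' windows of 50 bases with another gene and 9 shared at least 50%, so single-gene values of those are uncertain.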

How the data were processed

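Single-cell libraries of mouse kidney cortex were analysed from the deposited tables, which hold the authors' UMI counts per gene symbol and barcode. Per the submitters' processing notes, reads were aligned to mm10 with Bowtie2 2.2.7; other steps are not given in the sources used here. A barcode needed 500 UMIs from 500 genes and no more than 50% of UMIs from mitochondrial genes. Those kept were assigned by marker genes and summed per library and class. Sums of at least 20 barcodes entered (40 for Havcr1-marked). No doublet caller was run, and leaving out the 5% of barcodes with most UMIs was an alternative. Pairs of libraries shared 0 to 11 barcode sequences. Cell types were rebuilt from markers.

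Counts were tested in edgeR 4.0.16 (R 4.3.3; quasi-likelihood, TMM, low-count filter, 1 term per day, Benjamini-Hochberg over all genes, threshold 0.05), with the library as a block where both classes or kinds of barcode came from 1 library. Simulated data were run only for convoluted day 7 against control and for straight against convoluted barcodes. The straight day comparisons, the differences of changes and the Havcr1 comparison were not simulated. Alternatives were DESeq2 1.42.0, other scalings, filters and gates, and leaving out each library. Intervals and the limits from a count of 0 (3 counts) cover counting error only. Fold changes from a count of 0 leave out the counting error of the other side.

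The members and the lists were chosen with earlier results of these data known. Named with values were, per family, the up to 5 members with most UMIs and, per comparison and direction, the up to 3 called members with the largest change at an average log2 CPM of at least 5, 33 in all; other members were named after their values were seen. The comparison by Havcr1 and the day 14 difference between classes were added after seeing the data. Replicate numbers shared by days 7, 11 and 14 were checked for pairing: deviations from the day means correlated at 0.041, 0.011 and 0.014, so the numbers were not taken as pairs. Some motif and regulator results are not reported here.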

Additional observations from a re-analysis of the deposited data

Results flagged for a closer look

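The changes of these members were called different in straight and convoluted barcodes by a test of the difference itself (edgeR's quasi-likelihood test, adjusted over all genes). All values are straight minus convoluted differences of log2 changes against the single control library, and no explanation was tested. For day 7, which rests on 1 straight library of 57 barcodes, the difference was -3.47 for Ces2c, -3.24 for Ces2d-ps, -3.46 for Ugt2b37, -2.28 for Ugt2b5 and -2.00 for Ugt2b38. It was -1.61 for Gstt2, -1.59 for Gstm1, -0.997 for Sult1d1, -0.83 for Cyp2e1 and 3.09 for Gstt1. For day 14 it was -1.83 for Gstt3, -1.34 for Ugt2b37, -1.26 for Gstt2, -0.81 for Ces1e, -0.66 for Cyp2e1 and -0.58 for Ugt2b38, and it was 0.82 for Gstm1, 0.81 for Ugt3a2 and 0.67 for Sult1c2. DESeq2 called 6 members for day 7 and 0 for day 14. With barcodes assigned at 500 UMIs, the day 7 differences of Sult1d1 (0.047) and Cyp2e1 (0.43) turned, and those of Ugt2b37 (-0.53), Ces2c, Ugt2b5, Ugt2b38 and Gstt1 did not pass; those of Ces2d-ps, Gstt2 and Gstm1 did. Of the day 14 differences, those of Gstt2, Gstt3 and Ugt3a2 passed with that assignment. Without replicate 2 of day 14 those of Ces1e, Cyp2e1, Gstm1 and Ugt2b38 did not pass, the last with a turned direction (0.077).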

How the results depend on the processing

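Counts of called members moved with the barcodes summed, the fit and the tool. Assigning barcodes after thinning to 500 UMIs gave 17 calls for convoluted day 7 (29 in the report), 11 for straight day 7 (20), 13 for straight day 11 against day 7 (20), 4 for the day 7 difference between classes (10) and 4 for that of day 14 (9). Calls over all genes fell too for convoluted day 7, from 2385 of 12707 to 1526 of 12600. Summing all barcodes, whatever their type, gave 55 for each day 7 and day 11 comparison and 11 for convoluted day 14 (7). Of all 17495 genes it called 6422 for day 7 and 7819 for day 11. Proximal barcodes made up 59.9% of those kept in the control and 5.91% and 8.87% on day 7, so these sums differ in their mix of cells. Summing all proximal barcodes gave 36 for straight day 7, 40 for straight day 11 and 11 for convoluted day 14. Of all 14887 genes it called 3814 for day 7 and 4107 for day 11. With no filter convoluted day 14 had 11 calls, and with only the groups compared 14; the day 14 difference then had 5, and 3 with sums of at least 5 barcodes. DESeq2 gave 4 for straight day 14, 6 for the day 7 difference and 0 for the day 14 difference. The cause was not tested.

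Leaving out each library gave 24 to 29 calls for convoluted day 7, 24 to 36 for day 11, 4 to 9 for day 14, 20 to 26, 20 to 25 and 8 to 13 for the straight comparisons in the same order, 34 to 40 for straight against convoluted, 9 to 10 and 5 to 15 for the day 7 and day 14 differences, and 15 to 21 for Havcr1. With a replicate block, day 11 against day 7 had 35 calls in convoluted barcodes (34 without) and 24 in straight ones (20 without).

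Directions turned as follows (log2 changes). For convoluted day 7 with all barcodes: Gstk1 -1.15, Gstm1 -0.44, Gstt2 -1.22, Sult1c2 -0.14 and Ugt2b37 -1.40, and with all proximal barcodes Gstm1 -0.41 and Gstt3 -0.94. For convoluted day 11: Cyp2j5 -0.53 on total UMIs, Gstm1 1.10 and Ugt2b37 0.19 with all proximal barcodes, and Gstm1 1.32, Gstm5 0.68, Sult1c2 0.70, Ugt2b37 2.203 and Ugt2b5 2.58 with all barcodes. For straight day 11: Ces1e -0.13 and Gstk1 -0.033 with the thinned gate, Gsta1 -1.66 with all proximal barcodes, and Gstm5 0.68 and Sult1a1 0.92 with all barcodes. For straight day 14 with all barcodes: Ces1e 0.48 and Gstt3 0.27. With the thinned gate Cyp2e1 was 0.30 for straight against convoluted and 0.43 for the day 7 difference, and Sult1d1 0.047. The day 14 difference of Ugt2b38 ranged from -1.21 to 0.077 when a library was left out.

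Not run, for want of residual degrees of freedom or of a day 7 value, were the fits of only the groups compared for straight day 7 and its difference, those without the control in comparisons with it, and those without the only straight day 7 library. Straight day 7 values of few UMIs are limited by depth.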
